A study of Mus musculus with 4 samples.

Results

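Cholesterol and fatty acid synthesis genes were examined as a group of 36 genes, listed by their roles in the pathways and kept where the mean over the 4 libraries reached 10 normalized counts. All 36 reached it, among 15809 genes that did so and 55397 genes listed. They comprise a sterol branch of 19 genes, a fatty acid branch of 12 genes and 5 regulators that govern both. The cells were primary mouse embryonic fibroblasts (MEFs) taken from E13.5 embryos of C57BL/6J mice with Prox1(fl/fl) alleles, in which Cre recombinase removes a flanked piece of Prox1, a transcription factor gene. Every culture received lentivirus encoding 4in1, a set of 4 factors that turns MEFs into induced hepatocytes. The group labelled Prox1 KO also received Cre-GFP, and the control group dCre-GFP, a recombinase without activity. The former are called Cre libraries here. RNA was taken on day 14, with 2 libraries in each group, and the comparison asks what losing Prox1 does during reprogramming. In the first days all cultures were moved to Hepatocyte Culture Medium with 5% serum. The labels name no selection for cells that took up the viruses, so a library can hold cells that received neither 4in1 nor Cre.

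Cells make cholesterol from acetyl-CoA through mevalonate, squalene and lanosterol, and make fatty acids from acetyl-CoA through malonyl-CoA, with later steps that add carbons or double bonds. Both branches are switched on by the SREBP transcription factors (Srebf1 and Srebf2), which Insig proteins hold in the endoplasmic reticulum and Scap carries to the Golgi when sterols run low. In the liver this system supplies lipoproteins, membranes and bile acids, and low cell sterol raises most of the sterol branch together.

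Because SREBPs act at promoters, the RefSeq sequences upstream of the members were searched for the motifs they use. A promoter was matched for 29 of the 36 members in RefSeq GRCm38.p6, and those of 4 are shown 5′ to 3′ on the strand of the gene, cut before the first annotated exon base. Hmgcs1 and Insig1 are shown as textbook SREBP targets, and Dhcr7 and Scap as the members with a matched promoter that passed the test described below. Capitals mark the sterol response element TCACNCCAC, the E-box CACGTG and the CCAAT box bound by NF-Y, each searched on both strands, so that a CCAAT box on the other strand reads ATTGG. The windows are chr13:119690101-119690350 for Hmgcs1, chr5:28071162-28071362 for Insig1, chr7:143822917-143823144 for Dhcr7 and chr9:110333038-110333287 for Scap, all on the plus strand.
Hmgcs1: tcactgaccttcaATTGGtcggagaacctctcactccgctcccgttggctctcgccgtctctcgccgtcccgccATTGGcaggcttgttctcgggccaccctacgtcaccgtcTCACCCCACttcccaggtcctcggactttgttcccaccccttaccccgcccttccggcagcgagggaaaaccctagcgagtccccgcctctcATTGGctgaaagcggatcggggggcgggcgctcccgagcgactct
Insig1: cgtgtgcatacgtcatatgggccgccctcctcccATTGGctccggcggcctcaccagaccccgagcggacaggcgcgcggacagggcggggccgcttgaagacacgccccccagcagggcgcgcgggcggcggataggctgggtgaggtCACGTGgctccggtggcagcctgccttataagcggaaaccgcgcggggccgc
Dhcr7: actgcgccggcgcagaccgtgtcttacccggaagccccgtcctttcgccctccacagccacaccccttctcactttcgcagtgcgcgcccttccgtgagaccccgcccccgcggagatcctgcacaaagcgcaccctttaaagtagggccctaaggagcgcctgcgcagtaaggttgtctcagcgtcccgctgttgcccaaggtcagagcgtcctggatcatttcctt
Scap: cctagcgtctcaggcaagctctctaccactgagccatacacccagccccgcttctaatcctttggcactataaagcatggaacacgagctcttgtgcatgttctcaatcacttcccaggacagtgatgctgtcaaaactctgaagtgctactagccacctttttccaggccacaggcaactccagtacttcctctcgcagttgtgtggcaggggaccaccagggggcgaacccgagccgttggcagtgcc

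The Hmgcs1 window held 3 CCAAT boxes, at 237, 176 and 45 bases before the start, and the only exact TCACNCCAC among the 29 members, 137 bases before it. That element was in 1.03% of 27025 promoters of the same length and in 0.986% of the 11560 promoters of genes tested here. The Insig1 window held a CCAAT box 216 bases and a CACGTG 101 bases before the start. Neither Dhcr7 nor Scap held any of the 3 motifs in the 250 bases before the most upstream start, although RefSeq lists 3 starts for Dhcr7 and 2 for Scap. A CCAAT box was present in 13 of 15 sterol branch promoters (86.7%), in 4 of 5 of the regulators and in 4 of 9 fatty acid promoters, against 36.3% of the promoters of tested genes. The GC box GGGCGG bound by Sp1, which is not in capitals above, was in 14 of 15 sterol branch promoters (93.3%), in 2 of 5 of the regulators and in 5 of 9 fatty acid promoters, against 58.0% of tested genes. CACGTG was found for Elovl5, Hsd17b7, Insig1 and Sc5d, and in 8.13% of tested genes. These matches describe letters and show no binding.

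Each library held between 42469031 and 48524008 reads on genes, and the values are read counts per gene divided by the size factor of the library, called normalized counts. Prox1 was at 72.7 and 61.6 normalized counts in the Cre libraries and at 60.6 and 25.5 in the controls. The targeted gene was therefore not lower (log2 fold change 0.75, SE 0.27, limma adjusted p = 0.0936), and every direction given here rests on the labels. The study gives the second exon as the part that Cre deletes, while the count covers the whole gene, which an annotated antisense RNA also overlaps. Genes were tested with limma on log2(normalized counts + 1) with the replicate number as a block, and called at a Benjamini-Hochberg adjusted p under 0.05 over all 15809 genes. Nothing in the labels says that the 2 libraries of a group came from separate embryos or cultures, so the p-values measure only the spread between these libraries. With so few libraries and a block, limma took the spread of each gene mostly from other genes of similar level. The SE of a gene therefore says little about how closely its own 2 pairs match. An exact permutation test of 2 against 2 libraries that ignores the replicate pairs cannot give a two-sided p below 0.333, and pairing leaves fewer arrangements.

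Both pathways were expressed in all 4 libraries. Per kb of annotated exon, the control level was highest for Scd2, a stearoyl-CoA desaturase, at 5198 normalized counts per kb. Acly, which makes cytosolic acetyl-CoA from citrate, stood at 2108 and Elovl1, an elongase of very long chains, at 1834. Fatty acid synthase, Fasn, stood at 1274 and Scd1, a desaturase related to Scd2, at 1185. By this measure these 5 fatty acid genes led the list, ahead of every sterol gene. The highest sterol gene was Hmgcs1, which makes HMG-CoA, at 933.6 normalized counts per kb. The lowest were Idi1, an isomerase of the isoprenoid building block, at 120.2, the farnesyl diphosphate synthase Fdps at 81.8 and the sterol reductase Tm7sf2 at 81.1. The regulators Srebf1, Scap and Srebf2 lay close together, at 1109, 1094 and 1012 normalized counts per kb. The length used counts all annotated exon bases of a gene. It exceeds the longest transcript by far for some genes, such as Scap, and by little for others, such as Scd1. The order of Fasn, Scd1, Hmgcs1 and these regulators therefore depends on the length chosen, and an order by longest transcript was not tested.

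**Figure D1:**
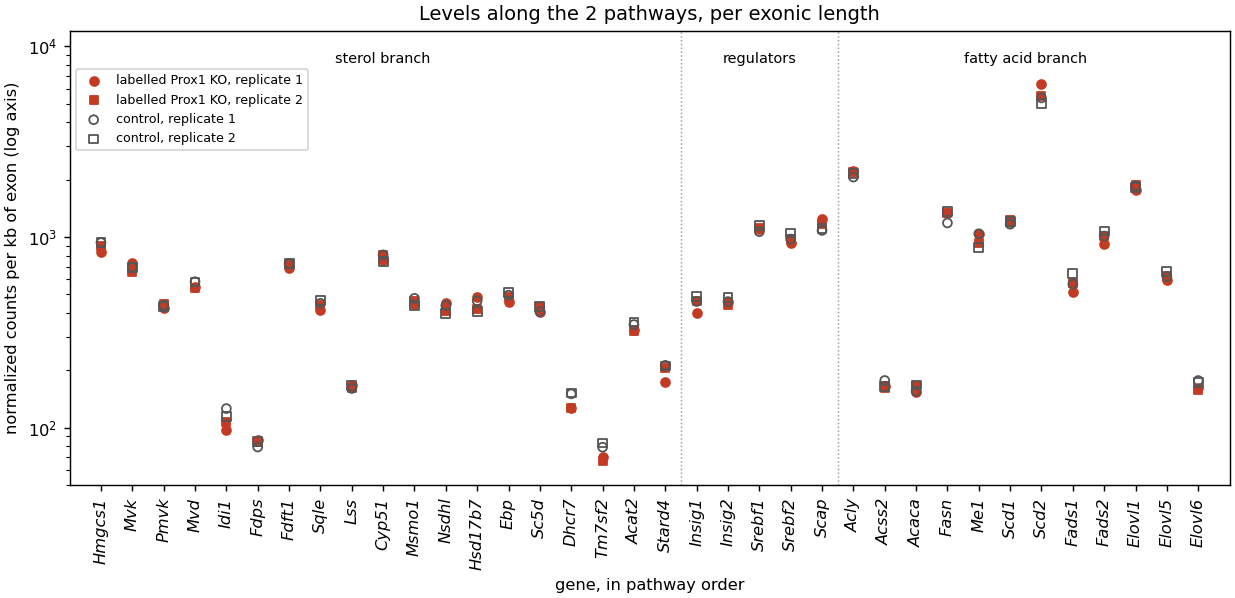
Normalized counts per kb of exon (log axis) for the 36 genes in pathway order, with 1 point per library, filled for the Cre libraries (labelled Prox1 KO) and open for the controls. The libraries of a gene lie close together, while genes range from 81.1 for Tm7sf2 to 5198 for Scd2 in the control means.

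The differences between the groups were small across the synthesis genes. Of the 36 members, 3 were called. Scd2 and Scap were higher and Dhcr7 was lower in the Cre libraries. That is 8.33% of the members, beside 11.4% of all genes tested, of which 5.09% were higher and 6.29% lower. The log2 fold changes of the 36 members ran from -0.26 to 0.18, and their 95% intervals, taken gene by gene without adjustment, all lay between -0.46 and 0.27. For 20 of the 36 members the difference between the replicate numbers was larger than that between the groups, as it was for 45.9% of all genes tested. Without the replicate block, limma called 0 members, with 2 at an unadjusted p under 0.05, beside 1783 of all 15809 genes tested.

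Dhcr7 reduces the last ring double bond on the way to cholesterol, and was the only sterol branch gene called. It was at 734 and 740.0 normalized counts in the Cre libraries and at 876 and 885 in the controls. The groups did not overlap, and the libraries of each group lay close together. It fell by 0.26 on the log2 scale in both pairs (SE 0.07, limma adjusted p = 0.0271), to 83.7% of the control mean. On the recovered reads, edgeR called it (adjusted p = 0.0255) and DESeq2 did not (adjusted p = 0.518). Dhcr7 (ENSMUSG00000058454) lies on chromosome 7 of GRCm38 from 143823145 to 143848410, and none of its 100-base windows occurred in another annotated gene.

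In the mevalonate stretch from acetyl-CoA to farnesyl diphosphate, 7 genes were measured and 0 were called by limma, edgeR or DESeq2. Of the 7, 2 were at an unadjusted limma p under 0.05, beside 3751 of all 15809 genes tested. The mean level of the 7 genes in the Cre libraries ran from 85.1% of the control mean for Idi1 to 104% for Fdps. The thiolase Acat2 was at 91.6%, Hmgcs1 at 92.8% and the decarboxylase Mvd at 92.9%. The kinases Mvk and Pmvk were both within 1% of the control, at 99.4% and 99.6%, and the order of their groups changed between the replicate pairs. Hmgcs1, whose promoter is shown above, was at 3839 and 4124 normalized counts in the Cre libraries and at 4295 and 4282 in the controls (log2 fold change -0.11, SE 0.05, limma adjusted p = 0.154). The groups of Hmgcs1 did not overlap, but the log2 difference was -0.16 in replicate 1 and -0.05 in replicate 2. Idi1 was at 341 and 376 normalized counts against 442 and 401, also without overlap (log2 fold change -0.23, SE 0.10, limma adjusted p = 0.181). Reads of Idi1 may be shared, since 27.6% of its 100-base windows occur in other annotated genes, as do 35.3% of those of Acat2 and 10.8% of those of Hmgcs1.

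From farnesyl diphosphate to lanosterol and its demethylation, 4 genes were measured and 0 were called by limma, edgeR or DESeq2. At an unadjusted limma p under 0.05 there were also 0 of the 4, beside 3751 of all 15809 genes tested. The squalene synthase Fdft1, the squalene epoxidase Sqle, the lanosterol synthase Lss and the demethylase Cyp51 ran from 93.7% (Sqle) to 101% (Cyp51) of the control mean. Sqle, a rate-limiting enzyme of the pathway, was at 2300 and 2441 normalized counts against 2491 and 2568, with a log2 fold change of -0.09 (SE 0.05, limma adjusted p = 0.257). For Fdft1, 21.5% of the windows occur in other annotated genes, among them Ctsb on the opposite strand.

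The 7 later genes convert lanosterol to cholesterol. Apart from Dhcr7, the lowest relative level was that of the sterol reductase Tm7sf2, at 311 and 295 normalized counts against 348 and 366 (log2 fold change -0.24, SE 0.11, limma adjusted p = 0.187). The groups of Tm7sf2 did not overlap, and its interval ran from -0.46, the lowest bound of any member, to -0.01. Vps51 overlaps Tm7sf2 on the same strand, so that reads may be shared. The sterol isomerase Ebp was at 93.4% of the control. Msmo1 and Sc5d, both sterol oxidases, were at 99.4% and 99.2%, and the dehydrogenases Nsdhl and Hsd17b7 at 103% and 104%. Stard4, a carrier that moves sterols between membranes, was at 965 and 1155 normalized counts against 1186 and 1177 (log2 fold change -0.16, SE 0.07, limma adjusted p = 0.173), and most of that difference lay in replicate 1.

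Most small differences of the sterol branch had the same sign. In 10 of the 19 genes both Cre libraries lay below both controls, and in 0 of the 19 both lay above. These shares, 52.6% and 0%, stand beside 22.6% and 21.8% of all genes tested. Genes read in the same 4 libraries are not independent, in this count and in those of the other lists. The 10 genes were Hmgcs1, Mvd, Idi1, Fdft1, Sqle, Ebp, Dhcr7, Tm7sf2, Acat2 and Stard4, and the count stayed at 10 with TMM factors and after quantile normalization. The median log2 fold change of the branch was -0.04, or -0.10 in replicate pair 1 and -0.05 in pair 2, beside -0.0022 for all genes tested. Summed over the branch, the Cre libraries held 30908 and 31483 normalized counts and the controls 32566.5 and 31935. The sums did not overlap, and the abundant genes weigh most in them.

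**Figure D2:**
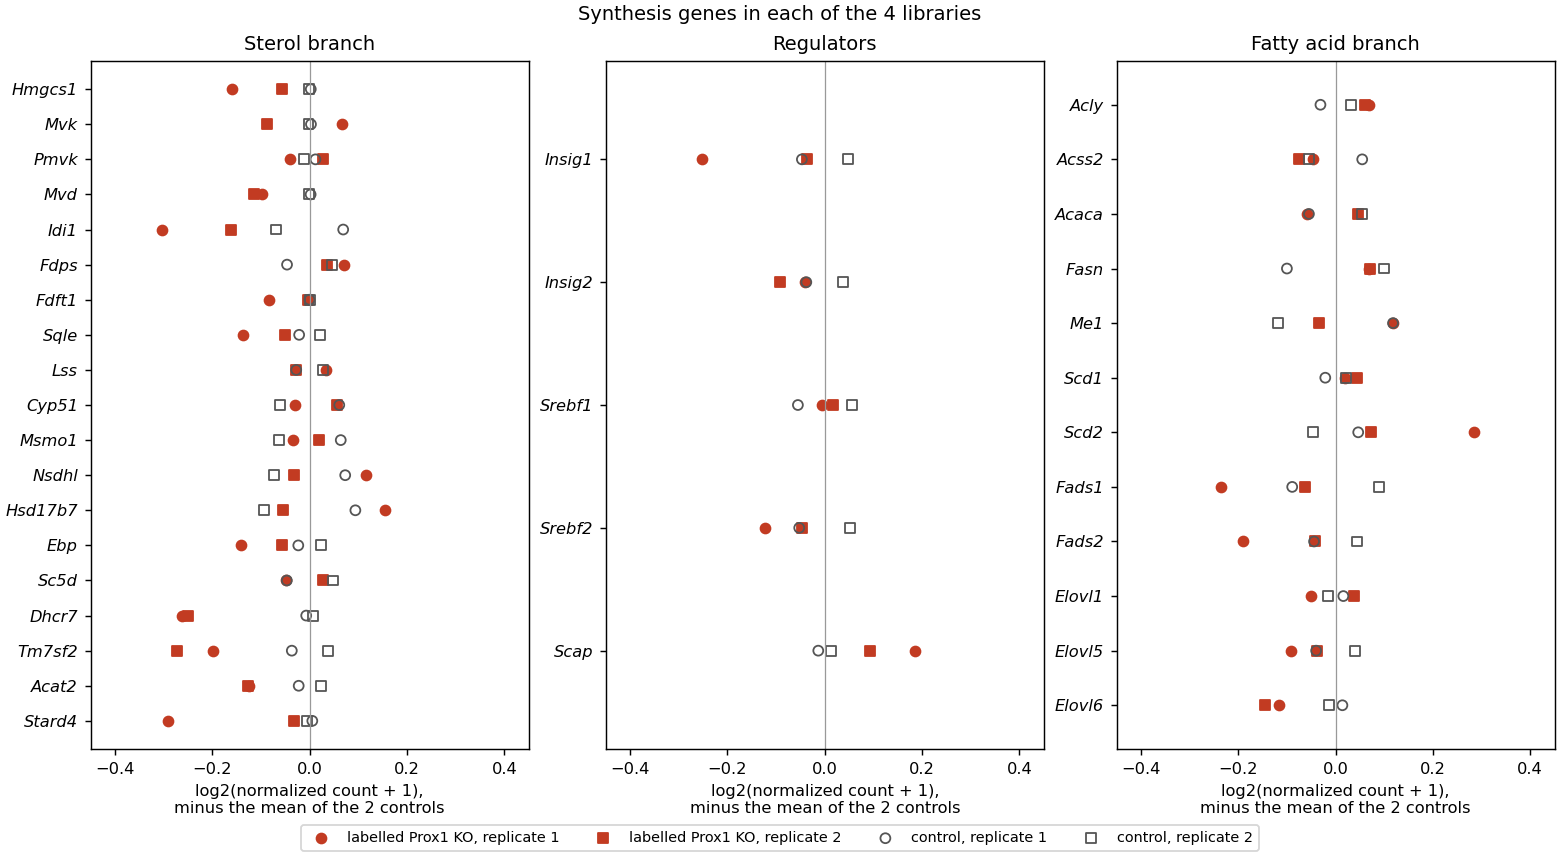
Each of the 36 genes in each library, as log2(normalized count + 1) minus the mean of the controls, by branch; circles are replicate 1 and squares replicate 2. In 10 of 19 sterol genes both filled points lie left of both open points, and in 1 of 12 fatty acid genes (3 with TMM factors or quantile normalization), beside 22.6% of all genes tested.

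Among the 5 regulators, Scap was called and the others were not, and the median log2 fold change was -0.07. Scap, the escort of SREBPs to the Golgi, was at 9254 and 8678 normalized counts in the Cre libraries and at 8066 and 8216 in the controls. The groups did not overlap (log2 fold change 0.14, SE 0.04, limma adjusted p = 0.0465), and the mean was 110% of the control. The call lies at the threshold, with an adjusted p of 0.0537 in edgeR and no call in DESeq2, and 7.22% of the windows of Scap occur in an antisense gene. Scap (ENSMUSG00000032485) lies on chromosome 9 of GRCm38 from 110333288 to 110384950.

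Insig1, which retains SREBPs in the endoplasmic reticulum and is itself an SREBP target, was at 1231 and 1431 normalized counts against 1420 and 1516. Its groups overlapped (log2 fold change -0.14, SE 0.06, limma adjusted p = 0.143). Insig2, its relative, was at 95.5% of the control mean, and its groups did not overlap. Srebf2, whose product chiefly drives the sterol branch, was at 6676 and 7032 against 7009 and 7538 (log2 fold change -0.09, SE 0.04, limma adjusted p = 0.214). Srebf1, whose product chiefly drives the fatty acid branch, was at 100.3% of the control mean, with an interval from -0.08 to 0.10 on the log2 scale. In 1 of the 5 regulators (20%) both Cre libraries lay below both controls, and in 1 (20%) both lay above. All genes tested gave 22.6% and 21.8%. With TMM factors 3 of the 5 lay below (60%, beside 24.6% of all genes tested). After quantile normalization 2 did (40%, beside 19.8%). The counts are those of transcripts, and the activity of the SREBP proteins was not measured.

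**Figure D3:**
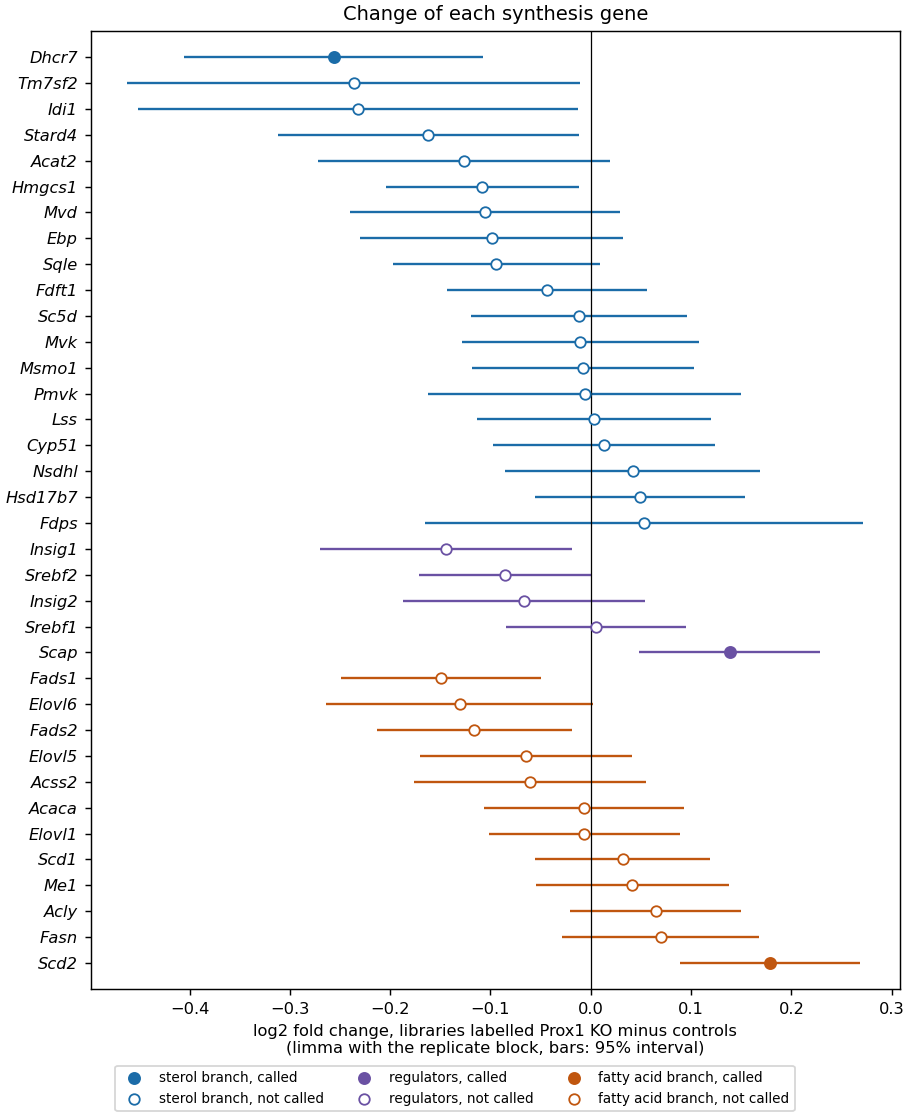
Log2 fold change of each gene, Cre libraries minus controls, from limma with the replicate block; bars are 95% intervals and filled points were called. Dhcr7 (-0.26), Scap (0.14) and Scd2 (0.18) are filled, and all bars lie between -0.46 and 0.27.

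In the fatty acid branch, Scd2 was the only gene called. Scd2 makes monounsaturated from saturated fatty acids, and was the most abundant member per kb. It was at 34555 and 29874 normalized counts in the Cre libraries and at 29317 and 27484 in the controls. The groups did not overlap, but the lower Cre library lay just above the higher control. The log2 fold change was 0.18 (SE 0.04, limma adjusted p = 0.0118), with 0.24 in pair 1 and 0.12 in pair 2, and edgeR (adjusted p = 0.0118) and DESeq2 (adjusted p = 0.0238) also called it. Leaving out the Cre library of replicate 1, in a fit without the block, gave 0.07. Scd2 (ENSMUSG00000025203) lies on chromosome 19 of GRCm38 from 44293674 to 44306864, and 0.896% of its windows occur in Scd1 or Scd3. Scd1, the main desaturase of liver and fat, was at 5874 and 5976 normalized counts against 5712 and 5881, with an interval from -0.06 to 0.12 on the log2 scale.

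The desaturases of polyunsaturated fatty acids had negative log2 fold changes, and limma called neither. Fads1, which introduces the delta-5 double bond, was at 2465 and 2775 normalized counts against 2726 and 3085. Its groups overlapped, while the log2 difference was -0.15 in both pairs (SE 0.05, limma adjusted p = 0.0524). It was thus just past the threshold in edgeR (adjusted p = 0.0429), just short of it in limma and far from it in DESeq2 (adjusted p = 0.553). Fads2, the delta-6 desaturase, had a log2 fold change of -0.12 (SE 0.05, limma adjusted p = 0.126), and its groups overlapped too.

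The 5 genes that supply carbon and NADPH or build the chain ran from 95.8% of the control mean for the acetyl-CoA synthetase Acss2 to 105% for Fasn and Acly. Fasn was at 14583 and 14613 normalized counts against 12979 and 14907, so that both Cre libraries lay between the controls. Acly was at 11669 and 11606 against 10890.4 and 11369, without overlap (log2 fold change 0.06, SE 0.04, limma adjusted p = 0.358). The acetyl-CoA carboxylase Acaca was at 99.6% and the malic enzyme Me1 at 103%, and 42.8% of the windows of Acaca occur in another annotated gene. The elongases Elovl1, Elovl5 and Elovl6 were at 99.6%, 95.6% and 91.3%. For Elovl6, which extends palmitate, the groups did not overlap (log2 fold change -0.13, SE 0.06, limma adjusted p = 0.218).

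The fatty acid branch thus held differences of both signs. In 1 of the 12 genes (8.33%) both Cre libraries lay below both controls, and in 2 (16.7%) both lay above, beside 22.6% and 21.8% of all genes tested. With TMM factors or quantile normalization, 3 of the 12 lay below, and with the latter 1 lay above. The median log2 fold change was -0.01, with -0.03 in pair 1 and -0.01 in pair 2. The branch summed to 88448 and 84613 normalized counts in the Cre libraries and to 81787.5 and 82564 in the controls, without overlap. Scd2 made up most of that gap, since without it the sums were 53892.5 and 54739 against 52471 and 55080.1, which overlap.

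**Figure D4:**
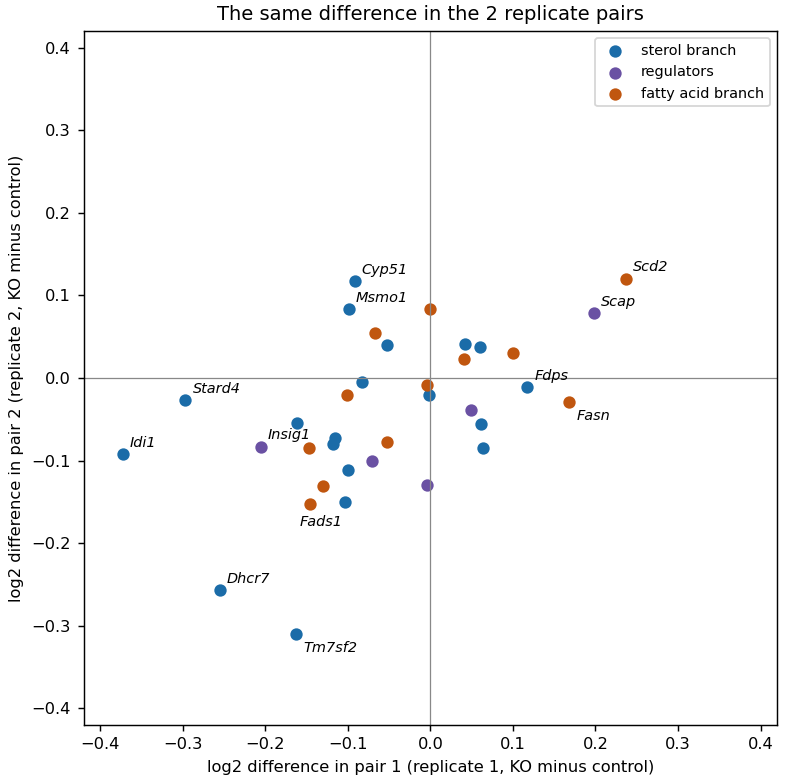
Log2 difference within replicate pair 1 (x axis) and pair 2 (y axis), 1 point per gene, coloured by branch. Of the 19 sterol genes, 11 lie below 0 in both pairs and 2 above, and of the 12 fatty acid genes 6 and 3; 33.3% and 32.5% of all genes tested did so.

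Of 7 genes of the response to excess sterol, 2 were higher and 1 lower in the Cre libraries (42.9% called, beside 11.4% of all genes tested). The sterol exporter Abca1 was at 7884 and 7436 normalized counts against 7002 and 6364 (log2 fold change 0.20, SE 0.04, limma adjusted p = 0.00481). Its relative Abcg1 had a log2 fold change of 0.19 (limma adjusted p = 0.0472). Mylip, a ubiquitin ligase, moved the other way, with -0.23 (limma adjusted p = 0.0347). The groups of Mylip overlapped, and of the 3 genes DESeq2 called only Abca1. All 3 are known targets of the liver X receptors, and they did not share a direction.

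Of 24 other genes of fatty acid and triglyceride synthesis, 20 were tested. Of these, 2 were higher and 1 was lower (15% called, beside 11.4% of all genes tested), none of which DESeq2 called. Hacd1, a dehydratase of chain elongation with 16.4% of its windows in other annotated genes, had a log2 fold change of 0.39 (limma adjusted p = 0.0199), and Lpin1, a phosphatidate phosphatase, 0.15 (limma adjusted p = 0.0353). Elovl7, an elongase, was at 152 and 139.8 normalized counts against 179 and 254, a log2 fold change of -0.55 (limma adjusted p = 0.0378). In the opposing pathway, 17 of 18 fatty acid oxidation genes were tested and 2 were called (11.8%, beside 11.4% of all genes tested). The acyl-CoA dehydrogenase of very long chains, Acadvl, was higher by 0.14 and that of medium chains, Acadm, lower, with -0.17 (limma adjusted p = 0.0482 and 0.0421). DESeq2 called neither, and edgeR only Acadm. In 9 of these 17 genes both Cre libraries lay below both controls (52.9%), and in 2 both lay above (11.8%). All genes tested gave 22.6% and 21.8%. These counts were not made under other scalings.

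Marker lists held larger fold changes than the synthesis genes. Of 9 hepatocyte markers tested of 11, 7 were lower in the Cre libraries, and the list summed to between 18565 and 20231 normalized counts there and between 26670.1 and 27638.5 in the controls. The most abundant were Afp (log2 fold change -0.22), Alb (-0.10, not called) and the epithelial keratin Krt18 (-1.06), and the largest falls included Trf (-1.30) and Serpina1a (-0.94), with 77.3% and 49.9% of their windows in other annotated genes. Ahsg and Apoc3, defining genes of mature hepatocytes, were near 0 in all 4 libraries, at most 6.39 normalized counts. Of 10 fibroblast markers, 4 were lower, among them Lum (-0.91), Pdgfra (-0.48) and Dcn (-0.43), and 1 was higher, while the most abundant, Col1a1 (0.05), Col1a2 (-0.08) and Vim (0.11), were not called. Their sum was 844041 and 946729 normalized counts in the Cre libraries and 873180 and 971248 in the controls. Of 10 proliferation markers, 7 were lower, and the nucleotide reductase subunit Rrm2, the most abundant, was higher, by 0.65. Next in abundance came Cdk1 (-0.31) and Top2a (-0.81), and the largest falls were those of Ccnb1 (-1.06, with 28.6% of its windows in other annotated genes), Plk1 (-1.04) and Mki67 (-0.95). Limma calls made up 77.8% of the hepatocyte, 50% of the fibroblast and 80% of the proliferation markers tested, beside 11.4% of all genes tested. DESeq2 called 4 of the hepatocyte, 1 of the fibroblast and 3 of the proliferation markers. Among the genes named that limma called, DESeq2 left out Afp, Serpina1a, Pdgfra, Dcn, Cdk1, Ccnb1 and Plk1.

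The proliferation list summed to 9931 and 8114 normalized counts against 7786 and 6932, a sum in which Rrm2 outweighs the others. Adipocyte markers gave 0 calls by limma, edgeR or DESeq2 among 6 tested of 12. Of the 6, 1 was at an unadjusted limma p under 0.05, beside 3751 of all 15809 genes tested. The list summed to 8230.4 and 7576 normalized counts against 7944 and 7027. The most abundant were Plin4 (log2 fold change 0.09), Fabp4 (0.17) and Lpl (0.02), and the other tested genes ran from -0.67 for Cd36 to 0.02 for Cebpa. The groups did not overlap for Cd36, lower in the Cre libraries, and for Plin4, higher there. That is 16.7% of the 6 each way, beside 22.6% lower and 21.8% higher of all genes tested. The defining genes Adipoq, Plin1, Cidec, Retn, Cfd and Lep were near 0, at most 8.26 normalized counts in any library. Whether these shifts in cell markers had a part in the differences of the synthesis genes was not tested. In bulk RNA, fewer cells of a type and less RNA per cell cannot be told apart.

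**Figure D5:**
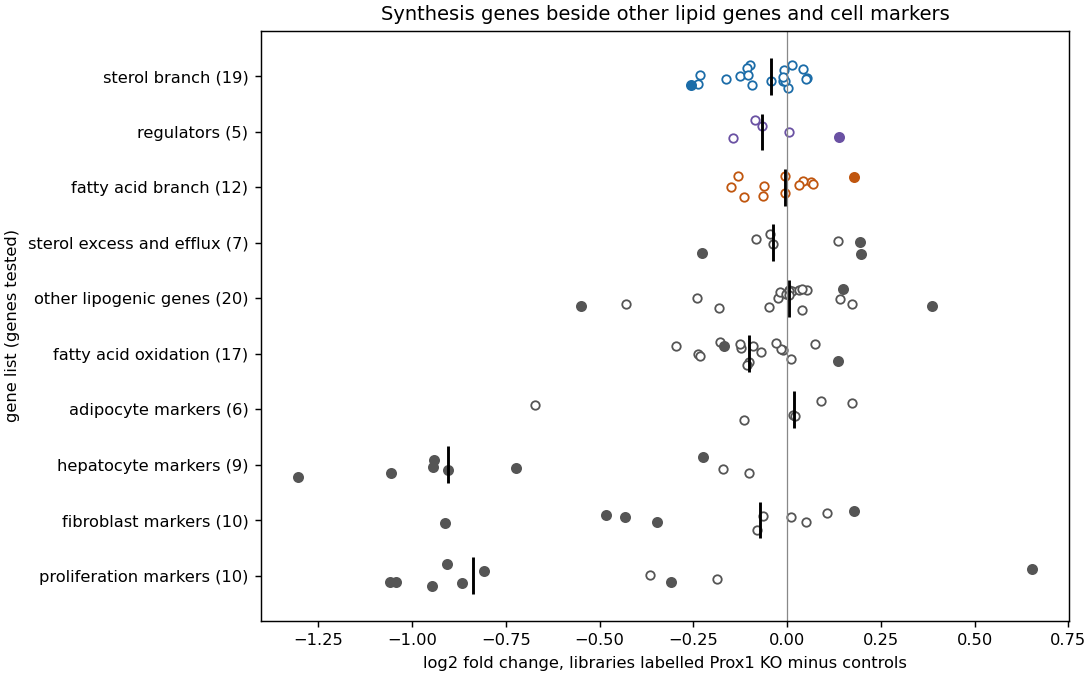
Log2 fold change of every tested gene of each list, Cre libraries minus controls; filled points were called, vertical bars are medians and the number tested is in brackets. The synthesis genes lie between -0.26 and 0.18, while hepatocyte and proliferation markers reach -1.30 and -1.06.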

How the data were processed

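Libraries were prepared with the dUTP protocol, which marks strand, and sequenced as paired reads of 100 bases. The submitters' processing notes name STAR, mm10 and DESeq2, and the deposited values are a signal per gene, read counts over the size factor of each library. The counting tool, its strand setting and the annotation release are not given in the sources used here. A second deposited table, with the authors' own shrunken log2 fold changes and p-values, was not used. All positive values were whole multiples of the value of 1 read (tolerance 0.01), so reads could be recovered (42469031 to 48524008 per library, size factors 0.939 to 1.09).

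Groups and replicate numbers came from the labels. Genes with a mean of at least 10 were tested with limma 3.58.1 (R 4.3.3) on log2(normalized counts + 1), with an intensity trend and a block for the replicate number, after the study's own use of the MEF line as covariate. The pseudocount of 1 makes changes of low genes look smaller than they are. Whether the numbers are MEF lines is not stated. Differences between replicates 1 and 2 correlated between the groups (r = 0.402 across 15809 genes, which are not independent). Members, lists and tests were chosen with earlier results of these data known. Members that passed the threshold or changed by 0.25 or more on the log2 scale are given in full, list genes past the threshold (up to 4 by size) are named, and from each marker list the 3 most abundant and up to 3 called genes. Values given for other genes were chosen after they were seen. Alternatives were no block, pseudocounts of 0.1 and 10, other filters, TMM factors, quantile normalization, edgeR 4.0.16 and DESeq2 1.42.0 on recovered reads, and leaving out libraries. Scripts were tested on simulated counts. Coordinates and exonic lengths came from GENCODE vM21 on GRCm38 (55137 of 55397 identifiers matched), the lengths over all annotated exons of a gene. Shared 100-base windows were those of the longest transcript in the same annotation. Promoters came from RefSeq GRCm38.p6, taking the most upstream start of each gene. Intervals cover the spread between these libraries only. Some results for other genes of sterol handling are not reported here.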

Additional observations from a re-analysis of the deposited data

How the results depend on the processing

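The replicate block decided most calls. Without it limma called 0 genes (1783 at an unadjusted p under 0.05) in place of 1798, and 0 members of the sterol branch, the fatty acid branch and the regulators in place of 1 each. DESeq2 called 483 genes with the block and 160 without it. With the block it called 0 sterol branch genes, 0 regulators and 1 fatty acid gene, and without it 0 in each. Leaving out 1 library without the block gave 0 to 118 genes called and 0 members in each branch. The sterol call, Dhcr7, was also lost after quantile normalization (0), and counting the regulators with the sterol branch gave 2. The fatty acid count rose to 2, with Fads1, after quantile normalization, with TMM factors and in edgeR. The regulator call, Scap, was lost (0) with a pseudocount of 10, with a mean of at least 100, after quantile normalization and in edgeR. The cause of these changes was not tested. Other pseudocounts and filters kept the remaining calls.

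With 1 replicate pair left out, the median log2 fold change was -0.099 to -0.054 in the sterol branch and -0.028 to -0.015 in the fatty acid branch, and -0.023 in the latter after quantile normalization. In counts added after the data were seen, fatty acid genes without overlap numbered 3 lower with TMM factors or quantile normalization (1 as reported), and quantile normalization left 1 higher (2 as reported) and 1 sterol gene higher (0 as reported). Regulators without overlap numbered 3 lower with TMM factors and 2 lower after quantile normalization (1 as reported).

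The sign of some uncalled members near 0 depended on scaling. After quantile normalization Pmvk was at 0.023, Cyp51 at -0.000135 and Srebf1 at -0.0073, and with TMM factors Lss was at -0.0066 and Srebf1 at -0.0038. Leaving out libraries or pairs turned the sign of 14 members, with ranges of -0.087 to 0.067 for Mvk, -0.052 to 0.040 for Pmvk, -0.011 to 0.12 for Fdps, -0.056 to 0.062 for Lss, -0.092 to 0.12 for Cyp51, -0.099 to 0.084 for Msmo1, -0.032 to 0.12 for Nsdhl, -0.056 to 0.15 for Hsd17b7, -0.058 to 0.036 for Sc5d, -0.050 to 0.061 for Srebf1, -0.061 to 0.048 for Acaca, -0.030 to 0.17 for Fasn, -0.077 to 0.16 for Me1 and -0.067 to 0.055 for Elovl1. In fits without 1 library, the lone library of an arm is assumed to vary like the other arm.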
